A study of Capra hircus with 6 samples.

Results

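The genes for the proteins of the mitochondrial ribosome were examined in RNA-seq libraries of goat (Capra hircus) intramuscular preadipocytes, which are precursors of the fat cells found between muscle fibres. Every gene whose name begins with MRPL or MRPS followed by a digit was taken, which gave 56 of the 27271 genes in the files, of which 18989 carry a name. By protein, 38 of them belong to the large subunit and 18 to the small subunit; MRPS18A and MRPS30 were counted with the large subunit, where their proteins sit in spite of their names. The cells came from the longissimus dorsi muscle of 3-day-old Jianzhou goats and were used at the third passage. In the NC group (3 libraries, labelled wild type) they received a negative control siRNA, and in the Si-LIPG group (3 libraries, labelled as LIPG knock down) an siRNA against LIPG, which encodes endothelial lipase. All of them were then induced towards fat cells with 50 μmol/L oleic acid and collected after 48 h. The study calls its replicates biological, but the sources used here do not say whether the libraries of a group came from separate animals or cultures, and the p-values measure only the spread between these libraries. MRPL38 stood on the study's list of leading genes, and the question asked here was whether its lower level in Si-LIPG was shared by the other subunit genes.

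Mitochondria keep a small genome of their own, and their ribosome makes the few proteins that this genome encodes, which are core subunits of the respiratory chain and of ATP synthase. The ribosomal RNAs are transcribed inside the organelle, whereas every protein of the particle is encoded in the nucleus, made in the cytosol and imported. Some of these proteins descend from those of the bacterial ribosome and others were added during the evolution of mitochondria. Energy supply in differentiating fat cells draws on the respiratory chain, and the subunit genes are commonly expressed together.

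Depth limited what could be seen, and the strand setting of the counts is not given in the sources used here. Between 524776 and 1051230 reads of a library were counted on genes, which is 0.997% to 2.88% of the reads in the files, and that share was lower in each NC library (0.997% to 1.53%) than in each Si-LIPG library (1.80% to 2.88%). LIPG itself had counts of 0, 2 and 0 in NC and 0, 2 and 2 in Si-LIPG, so the knockdown could not be checked and the groups are named as labelled. Of the markers of preadipocytes and mesenchymal cells, 10 of 11 found in the files were counted and DLK1 was at 0 throughout; their summed level was 21512 to 29172 CPM (counts scaled to library size with TMM, the scale of the tests below) in NC and 30310 to 36432 in Si-LIPG. COL1A1, COL1A2 and VIM made up 92.2% to 96.1% of that sum; singly, 3 of the 10 were higher in Si-LIPG without overlap, ENG was lower without overlap and 6 overlapped. The groups overlapped for the 6 myogenic markers, all of them counted (159.9 to 267 CPM in NC, 230.1 to 261 in Si-LIPG), and for the adipocyte markers, of which LPL was at 0 (6.27 to 38.3 and 4.94 to 24.4). Scaled to library size without TMM, the myogenic sums did not overlap, at 149.2 to 209.3 in NC and 276.3 to 310.1 in Si-LIPG. Of 3 immune markers CD68 and CD14 were counted and PTPRC was at 0, with sums of 10.7 to 28.2 CPM in NC and 8.66 to 14.2 in Si-LIPG. Of 4 endothelial markers CDH5 and KDR were at 0 and PECAM1 and VWF had at most 6 reads in a library. In bulk libraries, fewer cells of a type and less RNA per cell cannot be told apart, and the part of these marker differences in the values below was not tested.

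All 56 subunit genes had at least 1 read, but they shared only 5591 reads over the 6 libraries, and MRPL38 alone took 1380 of these (24.7%). Set beside length, the gap was similar: the mean FPKM (fragments scaled to gene length and library size, as deposited) of MRPL38 was 272.9, against a median of 11.7 and a range of 1.11 to 77.6 for the other 55 genes. MRPL38 is not a long gene, with 1173 bases against a median of 757.5 for the 56 genes and of 1779 for all counted genes. After MRPL38 the highest mean FPKM belonged to MRPL17 (77.6), a large subunit protein with a bacterial counterpart, followed by MRPS27 (53.9), a small subunit protein particular to mitochondria. Among the other 55 genes the total count over all libraries ran from 6 to 488 with a median of 63, and 193 of their 330 single values (58.5%) were under 10. A count of 0 was recorded in 56 of those 330 values.

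The zeros were not spread evenly over the libraries. In NC, 23, 12 and 9 of the 56 genes were at 0 in libraries 1 to 3, and in Si-LIPG 8, 3 and 1 were. All genes with at least 1 read in the files, named or not, showed the same order, with 39.9%, 29.8% and 28.6% at 0 in NC and 22.2%, 18.9% and 16.9% in Si-LIPG. The deeper the count on genes, the fewer subunit genes were at 0.

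**Figure D1:**
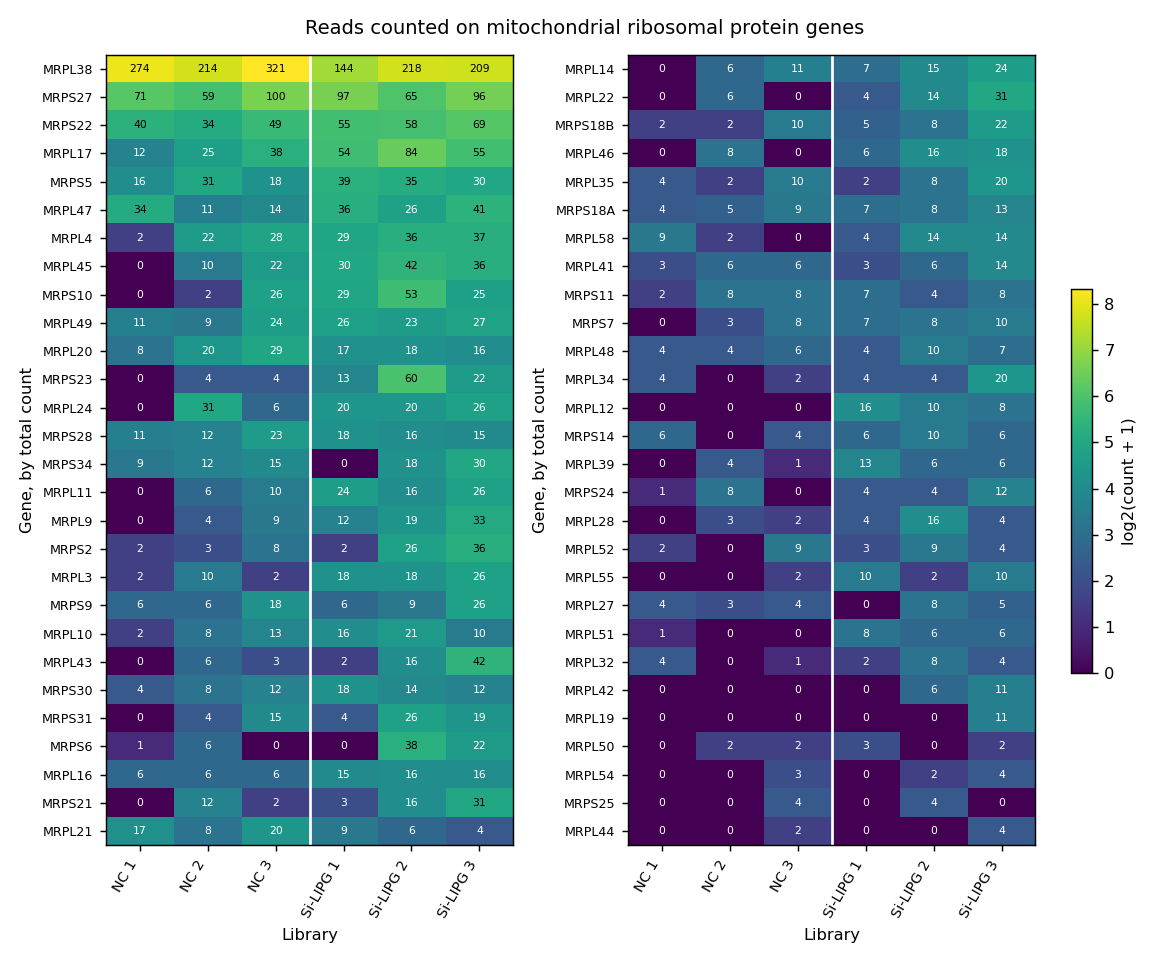
Reads counted on each of the 56 mitochondrial ribosomal protein genes (one per line, ordered by total count) in the 6 libraries (columns, NC left and Si-LIPG right of the white line). Numbers are raw counts and the colour is log2(count + 1). MRPL38 is at 144 to 321 in every library, while no other gene exceeds 100.

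MRPL38 encodes a large subunit protein that bacteria lack and that forms part of the central protuberance, a crest on top of the large subunit. Its raw counts were 274, 214 and 321 in NC and 144, 218 and 209 in Si-LIPG, so that the count of Si-LIPG 2 lay above that of NC 2. Scaled by TMM, which takes most genes as unchanged, its level was 859, 373 and 489 CPM in NC and 157, 172 and 148 CPM in Si-LIPG. On this scale every NC library was above every Si-LIPG library, and NC 1 was the highest. In the deposited FPKM the values were 445, 303 and 389 against 142, 189 and 169.5, again without overlap, a mean of 379 ± 71.5 against 167 ± 23.7 (SD, n = 3).

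The log2 fold change of MRPL38, Si-LIPG over NC, was -1.85 with a standard error of 0.35 (95% interval -2.60 to -1.09). In edgeR's quasi-likelihood test this gave an unadjusted p of 0.000105 and a Benjamini-Hochberg adjusted p of 0.0396 over 6574 tested genes, the seventh smallest p of them. Since the study picked MRPL38 from these same libraries, this is not independent evidence of its direction. The call was lost when single libraries were left out: the adjusted p was 0.0772 without NC 1, 0.0590 without NC 2, 0.241 without Si-LIPG 2 and 0.253 without Si-LIPG 3, with log2 fold changes between -2.07 and -1.46 over all 6 such fits. In each of these 4 settings 0 of all tested genes had an adjusted p under 0.05 in edgeR, while between 871 and 1611 met the study's criterion (an unadjusted p under 0.05 with a fold change over 1.5), as MRPL38 did.

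Scaling decided how large the change was. As CPM of all reads in the file, MRPL38 was at 5.21, 5.03 and 6.97 in NC and at 3.00, 5.83 and 5.73 in Si-LIPG, and the groups overlapped. Its log2 fold change on that scale was -0.24 (SE 0.38, adjusted p = 0.613 by edgeR), where the median of all tested genes stood at 1.58; on library sizes alone it was -1.18 (SE 0.33, adjusted p = 0.0571) with a median of 0.71. Relative to the median of all tested genes the value hardly moved, at -2.01 with TMM, -1.90 with library sizes alone and -1.82 with all reads. When the gene-assigned share of a library was entered as a covariate in edgeR, it was -1.05 (SE 0.46, unadjusted p = 0.0300, adjusted p = 0.998), and since that share separates the groups, the 2 cannot be told apart.

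**Figure D2:**
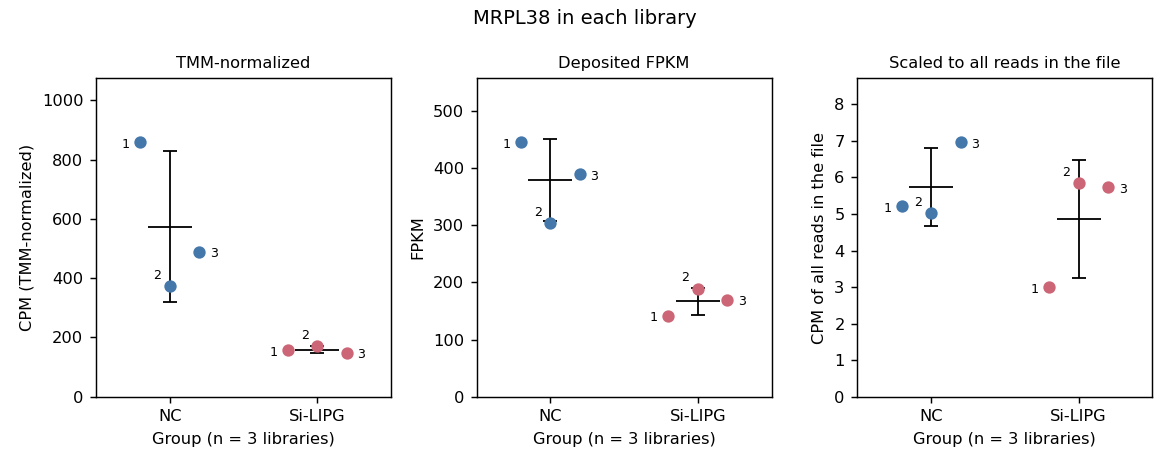
MRPL38 in the 3 NC and 3 Si-LIPG libraries as TMM-normalized CPM (left), deposited FPKM (middle) and CPM of all reads in the file (right). Points are libraries with their replicate number, the horizontal line is the mean and the bar 1 SD. The groups are apart on the first 2 scales and overlap on the right, where Si-LIPG 1 is lowest at 3.00 and NC 3 highest at 6.97.

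Ratios between subunit genes do not depend on the scaling. MRPL38 made up 47.4%, 32.7% and 34.2% of all subunit reads in NC and 16.6%, 17.9% and 15.7% in Si-LIPG, a mean of 38.1% ± 8.10 against 16.7% ± 1.12 (SD, n = 3). Over MRPS22, the third in total count, its ratio was 6.85, 6.29 and 6.55 in NC and 2.62, 3.76 and 3.03 in Si-LIPG. Neither pair of groups overlapped. Over MRPS27, the second in total count, the ratio was 3.86, 3.63 and 3.21 against 1.48, 3.35 and 2.18, and there Si-LIPG 2 lay above NC 3. The groups were thus apart for MRPL38 against MRPS22 and against the pooled subunit reads, but not against MRPS27. Such ratios do not say which gene changed. Since MRPL38 was picked from these same libraries, they partly restate that choice.

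Of the 56 genes, 27 had enough reads to be tested and 29 did not, the latter with total counts of 6 to 77 and no single count above 42. At the study's criterion 5 of the 27 were called (18.5%), against 20.7% of all tested genes. Lower in Si-LIPG were 4 of them, MRPL38, MRPL21, MRPS27 and MRPL20, against a background of 12.9% lower, and higher was 1, MRPS23, against 7.83%. MRPS23 passed the expression filter only through Si-LIPG and MRPL21 only through NC, which favours the direction each showed. With adjusted p under 0.05 1 subunit gene was lower, MRPL38, and 0 were higher, against 6.5% of all tested genes in either direction, 5.54% lower and 0.958% higher. DESeq2 likewise gave 4 lower and 1 higher (background 21.3%, of which 13.8% lower and 7.56% higher), and library sizes alone gave 2 lower and 1 higher (29.6%, of which 6.28% lower and 23.3% higher). The TMM-normalized levels of the groups did not overlap for 5 of the 27 genes (MRPL38, MRPL21, MRPL20 and MRPS28 lower, MRPS23 higher), where this was so for 28.7% of all tested genes.

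Fitted values lay on both sides of 0, with 12 genes above and 15 below. Their median log2 fold change was -0.09, and -0.06 without MRPL38, beside 0.16 for all tested genes. This placed the subunit genes 0.25 below the median of all genes (a difference of -0.25), and at -0.27 with library sizes alone and -0.39 with all reads. The sign of the median itself changed with the scaling: it was 0.44 with library sizes alone and 1.2 with all reads. Leaving out 1 library moved the difference between -0.30 and 0.0213, the positive value being that without NC 3.

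Whether the other subunit genes changed as much as MRPL38 could be read for few of them. For 7 of the 26 other tested genes the 95% interval of the log2 fold change lay wholly above that of MRPL38 (-2.60 to -1.09), and for 19 it reached into it. Against the fitted value of MRPL38 alone, taken as exact, 18 intervals lay wholly above -1.85 and 8 held it, and 22 held 0. MRPL21 was the only one with a lower fitted value. Precision was poor throughout, with a median standard error of 0.78 (0.39 to 1.21) for the other 26 against 0.56 for all tested genes. The median of the mean count per library was 15.8 for the tested subunit genes and 27.6 for all tested genes.

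How often a gene was called rose with its level. Of the 2294 tested genes with a mean count under 20 per library, 11.2% met the criterion and 5.54% were lower in Si-LIPG, and 17 subunit genes fell in this range. Of the 474 genes with a mean count of 200 or more, 51.5% met it and 43.2% were lower, and MRPL38 was the one subunit gene among them. In that range 201 genes (42.4%) had a log2 fold change below -1, and 9 (1.9%) were below the value of MRPL38. No subunit gene lay between 100 and 200, where 26.8% were lower. The ranges were set after the data had been seen and describe these libraries.

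**Figure D3:**
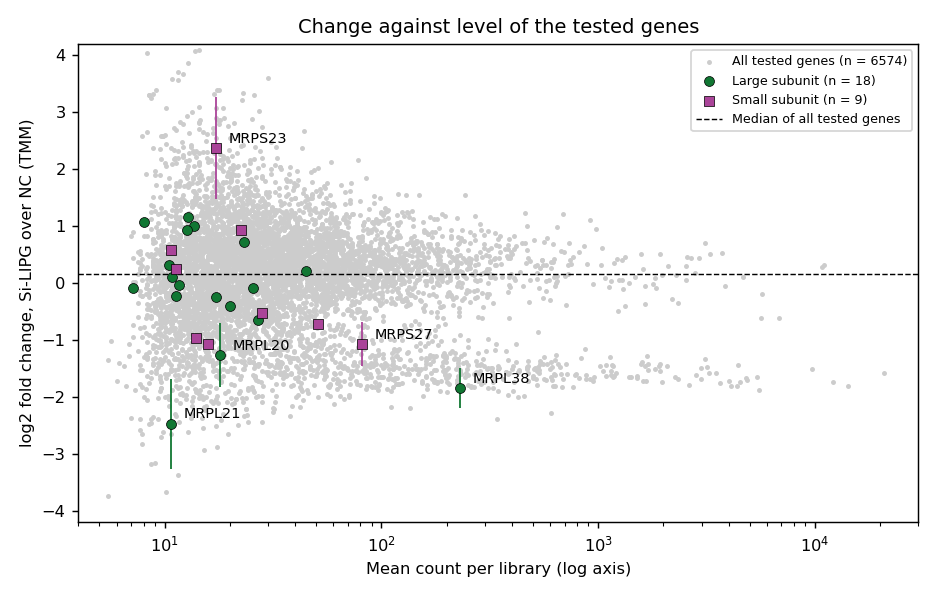
Log2 fold change, Si-LIPG over NC after TMM scaling (vertical axis), against the mean count per library (horizontal, log axis) for the 6574 tested genes (grey), with the 18 large subunit genes (green circles) and 9 small subunit genes (purple squares). Names and bars of 1 standard error are given for the 5 genes at the criterion, and the dashed line is the median of all tested genes at 0.16. MRPL38 is the best counted and lies among a band of well counted genes below -1, while most other subunit genes have few reads and lie on both sides of the line.

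By subunit, 18 large subunit genes were tested, of which 3 were called lower and 0 higher, with a median log2 fold change of -0.06. Of the 9 small subunit genes 1 was higher and 1 lower, with a median of -0.52. By descent, 2 of the 16 tested genes with a bacterial counterpart were called (median 0.04) and 3 of the 11 tested genes particular to mitochondria (median -0.23). All tested genes stood at 20.7% called with a median of 0.16. None of these splits was tested, and each holds few genes.

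In the large subunit, MRPL21 is the counterpart of bacterial L21. Its counts were 17, 8 and 20 in NC and 9, 6 and 4 in Si-LIPG. As CPM these were 53.3, 13.9 and 30.5 against 9.81, 4.72 and 2.82, with every NC library above every Si-LIPG library. MRPL21 passed the expression filter only through NC, which favours a lower value in Si-LIPG. Its log2 fold change of -2.47 (SE 0.79) had an adjusted p of 0.0762 in edgeR and 0.0172 in DESeq2, and with all reads it was -1.03 (SE 0.78, adjusted p = 0.296). MRPL20, the counterpart of a bacterial protein needed to assemble the large subunit, was counted 8, 20 and 29 times in NC and 17, 18 and 16 times in Si-LIPG. Its raw counts overlapped and its CPM did not (25.1 to 44.2 against 11.3 to 18.5), with a log2 fold change of -1.27 (SE 0.57, adjusted p = 0.216 by edgeR), but of 0.0291 with all reads. It no longer met the criterion without NC 2, NC 3, Si-LIPG 2 or Si-LIPG 3 (log2 fold changes of -1.27, -1.05, -1.23 and -1.09). MRPL17, whose protein lies near the opening of the exit tunnel, had counts of 12, 25 and 38 in NC and 54, 84 and 55 in Si-LIPG. Its raw counts were higher in every Si-LIPG library, whereas its CPM overlapped (37.6 to 57.9 against 38.8 to 66.1) and its log2 fold change was 0.22 (SE 0.41, adjusted p = 0.827).

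Within structural parts of the large subunit, 3 of the 6 central protuberance genes were tested. Besides MRPL38 these were MRPL46 (log2 fold change 1.08, SE 1.17) and MRPL58 (-0.09, SE 1.21), which encodes a peptidyl-tRNA hydrolase built into the particle, and neither was called. Of the 3 stalk genes, whose proteins recruit the translation factors, MRPL10 (-0.03, SE 0.77) and MRPL11 (1.00, SE 0.86) were tested, with 0 calls. Of the 8 genes of the exit tunnel 4 were tested, with 0 calls and a median of -0.02. These are too few tested genes to read 0 calls against the 20.7% of all tested genes.

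In the small subunit, MRPS27 encodes a pentatricopeptide repeat protein, a family that binds RNA. It had the second highest total, with counts of 71, 59 and 100 in NC and 97, 65 and 96 in Si-LIPG. Its CPM was 223, 103 and 152 against 106, 51.2 and 67.8, where Si-LIPG 1 lay just above NC 2. The log2 fold change was -1.08 (SE 0.39, adjusted p = 0.112 by edgeR), and 0.38 with all reads. Without Si-LIPG 2 (-0.83) or Si-LIPG 3 (-0.97) it did not meet the criterion. MRPS22, particular to mitochondria, was counted 40, 34 and 49 times in NC and 55, 58 and 69 times in Si-LIPG, higher in every Si-LIPG library. By CPM it was at 59.2 to 125 and 45.7 to 60.0, with a log2 fold change of -0.72 (SE 0.39, adjusted p = 0.319) that became 0.80 with all reads.

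MRPS23 was the only subunit gene called higher. It passed the expression filter only through Si-LIPG, which favours a higher value, so the call is not evidence of direction. Its counts were 0, 4 and 4 in NC and 13, 60 and 22 in Si-LIPG, with Si-LIPG 2 the highest by far. Its log2 fold change was 2.37 (SE 0.89, adjusted p = 0.132 by edgeR), and the groups did not overlap in counts or in CPM (0 to 6.96 against 14.2 to 47.2). Without Si-LIPG 2 the call was lost, with a log2 fold change of 1.60 (SE 1.38, unadjusted p = 0.257 and adjusted p = 0.726 by edgeR). MRPS21, the counterpart of bacterial S21, varied too much within groups to be read, with counts of 0, 12 and 2 in NC and 3, 16 and 31 in Si-LIPG and a log2 fold change of 0.58 (SE 1.06, adjusted p = 0.820). Without Si-LIPG 3 its sign turned.

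Limiting the view to genes with at least 10 reads in every library left 7 subunit genes, and 6 of these had a log2 fold change below 0, as had 44% of all 2757 genes that passed that filter and 41.6% of the 6574 tested genes. They were MRPL38, MRPS27, MRPS22, MRPS28 (-1.08, SE 0.61), MRPL47 (-0.65, SE 0.63) and MRPS5 (-0.52, SE 0.49), the exception being MRPL17. The last 3 had adjusted p values of 0.349, 0.626 and 0.615 in edgeR. When all genes were filtered in this way, the median of the 7 was 0.57 below that of all genes tested (a difference of -0.57). A gene that is at 0 in a shallow NC library cannot pass this filter, so it favours genes that are high in NC.

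At the other end, MRPL12, MRPL42 and MRPL19 had no read in any NC library; they were chosen after their values had been seen. MRPL12, the stalk protein that contacts translation factors, had counts of 16, 10 and 8 in Si-LIPG. Against a floor of 3 counts over the NC group this was at least 4.87-fold higher after TMM and at least 13.1-fold higher per all reads. MRPL42 had 0, 6 and 11 counts (at least 2.44-fold) and MRPL19 0, 0 and 11 (at least 1.58-fold), and MRPL19 thus rested on 1 library. MRPL51 had 1 read in NC and 20 in Si-LIPG, a TMM ratio of 8.60 with a 95% counting interval of 1.38 to 357, and MRPL55 had 2 and 22, a ratio of 4.73 (1.16 to 41.5). With TMM alone 2 genes went the other way. MRPL44 (2 and 4 reads, interval 0.123 to 9.51) and MRPL54 (3 and 6, interval 0.184 to 5.32) both had a TMM ratio of 0.86. Per all reads both ratios were 2.32 (intervals 0.332 to 25.6 and 0.495 to 14.3), and on either scale the intervals held 1. None of these 7 entered the test, and floors and intervals cover counting error only. No subunit gene was at 0 in every Si-LIPG library. Zeros were more frequent in NC for all counted genes, named or not, too (28.6% to 39.9% of them in a library, against 16.9% to 22.2% in Si-LIPG). The share of all genes at 0 throughout a group is not given here.

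Summed over all 56 genes, subunit reads numbered 578, 655 and 939 in NC and 865, 1219 and 1335 in Si-LIPG. As a share of the reads on genes they were 0.110%, 0.109% and 0.133% against 0.10%, 0.124% and 0.127%, a mean of 0.117% ± 0.0139 and 0.117% ± 0.0148 (SD, n = 3). The ratio of these means was 0.996 and the groups overlapped, with Si-LIPG 1 the lowest and NC 3 the highest. Without MRPL38 the share was 0.0579%, 0.0733% and 0.0878% in NC and 0.0834%, 0.102% and 0.107% in Si-LIPG, a ratio of 1.33 with overlap between NC 3 and Si-LIPG 1. As CPM of all reads the other 55 genes were at 5.78, 10.4 and 13.4 in NC and 15.0, 26.8 and 30.9 in Si-LIPG, a ratio of 2.46 without overlap. The smaller part of MRPL38 in Si-LIPG thus stood beside a larger part of the other genes in the same total. A higher level was not particular to these genes. The median log2 fold change of all tested genes was 0.71 with library sizes alone and 1.58 with all reads. For the 26 other tested subunit genes it was 0.57 and 1.39. Reads on genes were themselves a larger share of all reads in Si-LIPG (1.80% to 2.88%) than in NC (0.997% to 1.53%).

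**Figure D4:**
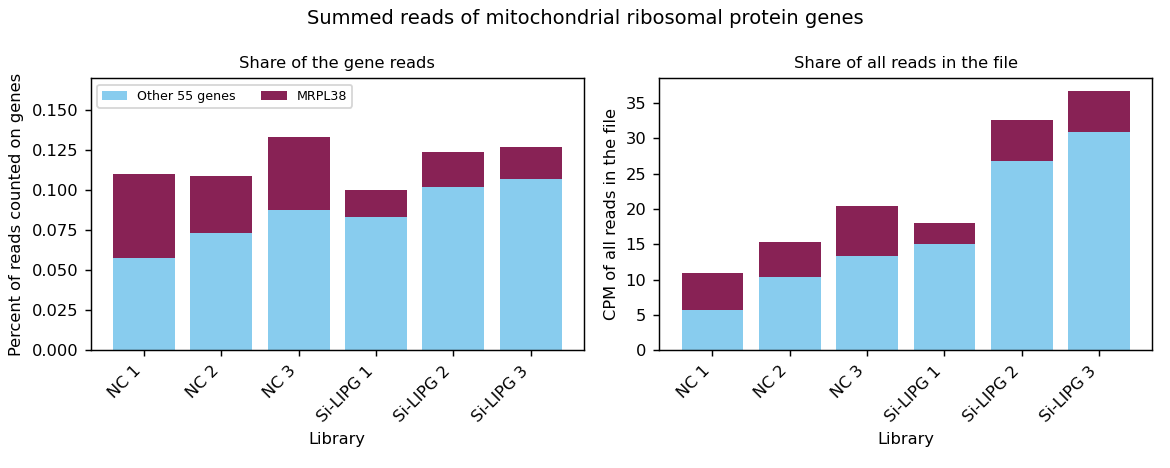
Summed reads of the mitochondrial ribosomal protein genes in each library as percent of the reads counted on genes (left) and as CPM of all reads in the file (right). Bars are stacked, with the other 55 genes in light blue and MRPL38 in dark red. On the left the totals of the groups overlap at 0.10% to 0.133% while the dark part is smaller in Si-LIPG, and on the right the light part is larger in every Si-LIPG library. On the scale of the right panel the median log2 fold change of all tested genes was 1.58.

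Other genes of mitochondrial translation were read in the same way. Of a list of 70 genes (subunits with other names, translation factors, aminoacyl-tRNA synthetases, assembly and RNA modification factors), 64 were in the files and 23 were tested. At the criterion 4 were lower and 0 higher (17.4%, beside 20.7% of all tested genes in either direction and 12.9% lower), fitted values were above 0 for 12 and below 0 for 11, and their median was 0.02. MRRF, the factor that takes the ribosome apart after termination, had counts of 128, 137 and 125 in NC and 137, 79 and 68 in Si-LIPG. Its CPM was 277 ± 111 against 86.5 ± 54.9 (SD, n = 3), without overlap, and its log2 fold change of -1.68 (SE 0.44) had an adjusted p of 0.0400 in edgeR. In the 4 settings without 1 library in which no gene passed, that adjusted p was 0.112 without NC 1, 0.0691 without NC 2, 0.244 without Si-LIPG 2 and 0.253 without Si-LIPG 3, and with all reads the log2 fold change was -0.29 (adjusted p = 0.571). With library sizes alone MRRF was at -1.10 (SE 0.39, adjusted p = 0.0896 by edgeR). TFB1M, which methylates the small ribosomal RNA, was at -1.59 (SE 0.48, adjusted p = 0.0599 in edgeR and 0.0306 in DESeq2) with no overlap, and at -0.19 (adjusted p = 0.791) with all reads.

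PTCD3, a small subunit protein with another style of name, was at -1.24 (SE 0.45, adjusted p = 0.120 by edgeR), and RARS2, the mitochondrial arginyl-tRNA synthetase, at -1.30 (SE 0.49, adjusted p = 0.128). Both lost the criterion without NC 1 (-0.58 and -0.63) and without Si-LIPG 3 (-0.97 and -0.99), and PTCD3 also without Si-LIPG 2 (-1.03). With all reads both had positive values, 0.31 and 0.26. On that scale 8 genes of the list were higher and 0 lower, and the subunit genes gave 4 higher (MRPL9, MRPL17, MRPS23 and MRPL3) and 0 lower. Of these 4, MRPL9, MRPS23 and MRPL3 had too few NC reads to enter the test without Si-LIPG. The background on that scale was 46.1% of all tested genes at the criterion, 46.1% higher and 0.0304% lower.

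Reads of adjoining genes may enter some of these counts. All 56 genes were found in the RefSeq annotation (assembly ARS1.2), where 37 have another gene overlapping or within 1 kb and 13 of these overlap one. MRPL38 overlaps a long non-coding RNA, LOC102190260, whose name was matched to no named gene in the count table. MRPL46 and MRPS11 lie 25 bases apart, and MRPL21 lies 36 bases from IGHMBP2. MRPL27 overlaps EME1, which had 1447 to 1988 reads in a library while MRPL27 had at most 8. The libraries mark strand, but the counting setting is not given in the sources used here, so reads of such pairs cannot be told apart. Whether the reads counted on any gene, MRPL38 included, came from its own strand was not tested. Only 0.997% to 2.88% of the reads of a library were counted on genes. ND6 had 22.6 to 99.3 times the median per-length count of 12 other mitochondrial genes. Among tested genes, 3 of the 17 with a neighbour met the criterion (median -0.25) and 2 of the 10 without (median 0.23), beside 20.7% of all tested genes with a median of 0.16.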

How the data were processed

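Poly(A) RNA of 6 libraries (3 NC, 3 Si-LIPG) was sequenced from strand-marking (dUTP) libraries. Per the labels, the submitters' processing notes name fastp, HISAT2, SAMtools and HTSeq; versions, genome build and strand setting are not given in the sources used here. The authors deposited raw counts per Ensembl gene and, in a separate table, FPKM per gene, from which gene lengths were derived. The 5 rows that name no gene, 97.1% to 99.0% of all reads, were left out of library sizes. Depth was 524776 to 1051230 reads on genes, and 3 counts, the upper limit of a count of 0, equal 2.85 to 5.72 CPM of these.

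Counts were tested with edgeR 4.0.16 in R 4.3.3 (TMM, filterByExpr, glmQLFit and glmQLFTest, two-sided, no covariate) over 6574 genes with Benjamini-Hochberg adjustment; the standard error is the absolute log2 fold change over the root of F. The biological coefficient of variation was 40.5%. Alternatives were DESeq2 1.42.0, the tool of the study, and limma 3.58.1 on log2(FPKM + 1) and log2(FPKM + 0.1); fold changes there are on the log2(value + pseudocount) scale, where the larger pseudocount draws low genes towards 0. Other scalings, filters, a length correction, a covariate, a replicate block and leaving out each library were also tried. Replicate pairs of a group differed by more than sampling noise. Named genes were MRPL38, genes at the criterion, the 3 genes of each subunit with the most reads per kb, and genes of the mitochondrial translation list at the criterion. Subunit genes, lists and alternatives were chosen with earlier results of these data known. No sequences were used, and no genome coordinates are given.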

Additional observations from a re-analysis of the deposited data

Results flagged for a closer look

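Reads that fell on no gene made up a median of 92.9% of all reads of a library (91.6% to 93.7% over the 6 libraries), a class of reads that enters the comparisons of subunit genes only through the total of all reads.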

How the results depend on the processing

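The 5 subunit genes at the criterion (18.5%, beside 20.7% of all tested genes) became 3 with library sizes alone (11.1% beside 29.6%), 2 with at least 10 counts in every library (28.6% beside 38.7%) and 1 with the gene-assigned share as covariate (3.70% beside 2.84%). Without single libraries they were 2 to 7, with 2 without Si-LIPG 2 (7.41% beside 13.2%) and 3 without Si-LIPG 3 (12% beside 13.1%). In limma on log2(FPKM + 1) they were 7, of which 5 higher and 2 lower, where all tested genes had 1509 higher and 403 lower. The 1 gene with adjusted p under 0.05 became 0 with library sizes alone, with all reads, with the covariate, in limma with either pseudocount and with MRPL38 left out, 2 in DESeq2 and 0 to 2 without single libraries. Of all tested genes, 427 passed in edgeR with TMM, 100 with library sizes alone, 750 with all reads (all higher), 681 in DESeq2 and 0 with the covariate, in limma and without NC 1, NC 2, Si-LIPG 2 or Si-LIPG 3. The log2 fold change of MRPL38 stayed negative in every setting; its adjusted p passed 0.05 with library sizes alone (-1.18), all reads (-0.24), the covariate (-1.05) and limma (-1.17 with a pseudocount of 1 and -1.18 with 0.1, adjusted p = 0.109 and 0.170), and it ran from -2.07 to -1.46 without single libraries (adjusted p 0.00849 to 0.253). The difference of the subunit median from all genes was -0.57 with at least 10 counts in every library, and the summed share ratio was 1.87 with all reads, 1.33 without MRPL38 and 2.46 with both, the last added after the data had been seen.

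The 4 genes of the translation list (all lower) became 8 with all reads (all higher, beside 46.1% of all tested genes at the criterion), 7 of 64 with no filter (3 higher and 4 lower, beside 13.8%), 0 with the covariate (beside 2.84%) and 2 in limma on log2(FPKM + 0.1) (both lower, beside 25.4%). Without single libraries they were 2 to 8, with 8 of 30 without NC 2 (2 higher and 6 lower, beside 21.1%) and 2 of 25 without Si-LIPG 3 (both lower, beside 13.1%). Signs turned with all reads for MRPS27 (0.38), MRPL20 (0.0291), MRPS22 (0.80), PTCD3 (0.31) and RARS2 (0.26), where the median of all tested genes moved from 0.16 to 1.58 and each of these 5 lay below it on both scales; signs also turned with the covariate for MRPS21 (-3.15), MRPS22 (0.14), MRRF (0.0474), PTCD3 (0.78) and RARS2 (0.76), and without Si-LIPG 3 for MRPS21 (-0.0833, and 2.65 at most without another library). For the changes other than those with all reads, the cause was not tested. Of the 224 values of single named genes under alternatives, 184 kept their sign and their side of an adjusted p of 0.05.

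Libraries with the same number deviated together with correlations of 0.210, 0.0639 and 0.105. For replicates 1 and 3, but not for 2, the library of the same number was the best match in both directions. Whether the numbers mark pairs was thus not settled, and the main fit did not take them as pairs. With the replicate block, 4 subunit genes met the criterion (1 higher, 3 lower; 14.8%, beside 23.6% of all tested genes), 2 had adjusted p under 0.05 (MRPL38 at -1.76 and MRPS27, adjusted p = 0.00982), as did TFB1M (0.00333), PTCD3 (0.00194) and RARS2 (0.0179), and 925 of all tested genes passed, beside 427 without it.

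Depth limits these results: 29 subunit genes could not be tested, and for 19 of the 27 tested the 95% interval held changes of 1.5-fold in either direction.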

Other observations

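Even numbers were frequent among low counts. Of the counts of subunit genes from 1 to 20, 157 of 209 were even (75.1%), and over all genes 63.4% to 67.6% were even in each library. ND6, a gene of the mitochondrial genome and thus a product of the mitochondrial ribosome, had 22.6 to 99.3 times the median per-length count of 12 other mitochondrial genes (52.0 in the median library).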
